A study of Rattus norvegicus with 2 samples.

Results

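Genes for antagonists of Wnt signaling were followed through RNA-seq libraries of the acetabular cartilage, which lines the hip socket, of 3-week-old Wistar rats. All 10 members were taken by symbol from the 17337 genes of the deposited table: Frzb, Sfrp1, Sfrp2, Sfrp4, Sfrp5, Dkk1, Dkk3, Wif1, Nkd1 and Nkd2. The DA-DDH library held the combined RNA of 5 rats with swaddling-induced hip dislocation (disarticulation; DA), a model of developmental dysplasia of the hip (DDH). Their hind limbs had been bound for 10 days after birth with hips adducted and extended and knees extended, and they then moved freely until harvest. The control library held the combined RNA of 4 rats raised without restriction. The dissection aimed at cartilage alone, and markers of other tissues are given below where they bear on a result. With 1 pooled library per group there was no replicate check, so the conditions were not tested, and every difference below is between 2 libraries.

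Wnt proteins are secreted signals that bind Frizzled receptors and the coreceptors Lrp5 and Lrp6 and, in the canonical branch, stabilize β-catenin. Secreted antagonists act outside the cell. Proteins of the Sfrp family, of which Frzb is one, carry a Frizzled-like cysteine-rich domain that binds Wnt proteins, and Wif1 binds them through a domain of its own. Dkk1 occupies Lrp5 and Lrp6, whereas Dkk3 is a divergent relative whose effect on Wnt signaling depends on the cell. Nkd1 and Nkd2 act inside the cell on Dishevelled, which relays the signal from the receptors. In joints, balanced Wnt activity is needed to keep articular chondrocytes in their differentiated state, and Frzb was first known as a protein of cartilage.

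The DA-DDH library held 833869 reads assigned to genes and the control library 796723. Col2a1, the collagen gene of hyaline cartilage, made up 11.4% of DA-DDH reads (11.4 to 11.5, 95% Clopper-Pearson interval) and 29.3% of control reads (29.2 to 29.4), so the libraries were scaled by TMM, which leaves out extreme genes. Levels are given as CPM, reads scaled to a common TMM library size. A log2 ratio is that of DA-DDH over control after this scaling with a prior of 0.5 reads, and its bracketed interval is a 95% exact conditional binomial interval. All intervals cover counting error only. Hyaline cartilage markers were present in both libraries: 16 of 18 listed genes were in the table, all of them past 30 reads in one library or both, and none was at 0.

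Of the 10 antagonists, 6 reached a floor of 30 reads in the deeper-read library for that gene (Frzb, Sfrp4, Sfrp5, Dkk3, Wif1 and Nkd2) and 4 did not (Sfrp1, Sfrp2, Nkd1 and Dkk1). Among the 6, Nkd2 and Sfrp4 exceeded 2-fold on the higher side in DA-DDH (2 genes), Frzb and Sfrp5 on the lower side (2 genes), and Dkk3 and Wif1 lay within 2-fold. Of all 4375 genes at this floor, 4.82% passed 2-fold on the higher side and 3.04% on the lower side, or 14.6% and 1.07% when scaled by total reads. Nkd2 and Sfrp4 reached the floor through the DA-DDH library alone and Sfrp5 through the control library alone, so these had to differ, and only Frzb, Dkk3 and Wif1 had at least 30 reads in both. The median log2 ratio of the 6 was -0.03, against 0.03 over all genes at the floor. The antagonists therefore did not share a direction, as the plot of levels in each library shows. In bulk cartilage, fewer cells of a type and less RNA per cell cannot be told apart.

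**Figure D1:**
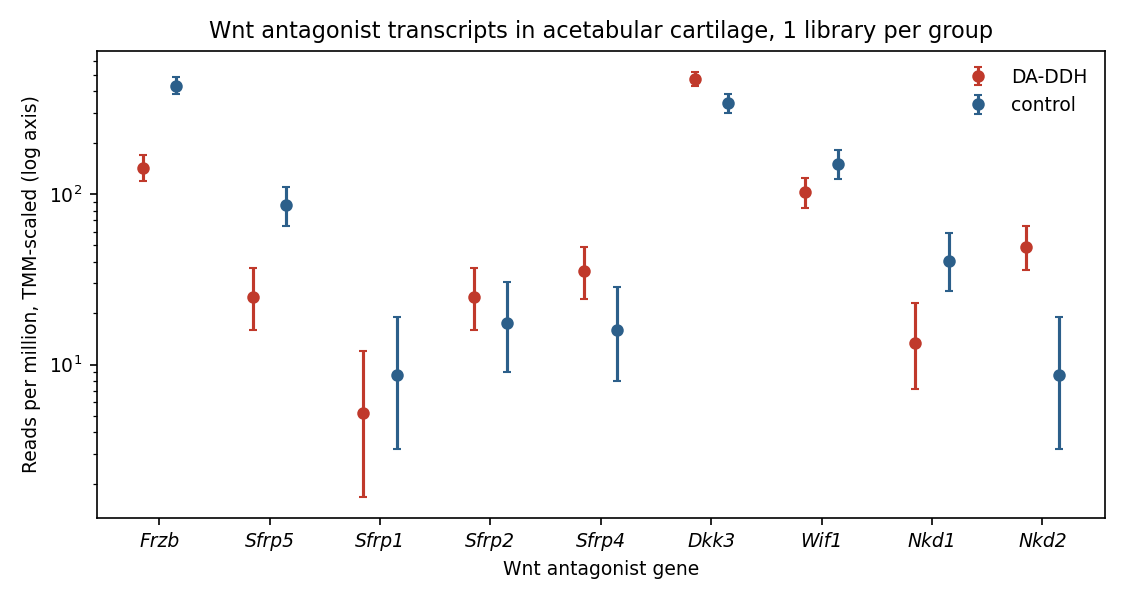
CPM after TMM scaling (log axis) of the 9 antagonist genes with reads, DA-DDH left and control right, 1 library each; bars are 95% exact Poisson intervals and cover counting error only. Frzb stands at 143 in DA-DDH and 432 in control, and Nkd2 at 48.6 in DA-DDH and 8.73 in control.

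Frzb, the cartilage-type antagonist, was the member that differed most among those with many reads. The gene spans 67635605 to 67668772 of chromosome 3 (minus strand, build rn6, as do all gene positions here unless another build is named). Frzb had 138 reads in the DA-DDH library and 297 in the control library, or 143 (120 to 169) and 432 (384 to 484) CPM. The log2 ratio was -1.59 (-1.90 to -1.30), 3.02-fold lower in DA-DDH, and 28 of the 4375 genes at the floor had a lower ratio. Among the 1313 genes with 100 reads or more, 11 had a lower ratio and 3.81% passed 2-fold on the lower side.

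The marker genes with the log2 ratios closest to that of Frzb, over 62 marker genes with at least 100 reads, were all collagens of hyaline cartilage. They were Col9a1 at -1.56, Col9a2 at -1.63 and Col11a2 at -1.52, chains of the collagen types IX and XI that build fibrils with type II collagen. With 2 libraries such likeness rests on a single ratio per gene. The summed reads of the hyaline cartilage list had a log2 ratio of -1.69 (120771 reads in DA-DDH and 276693 in control). All 16 of its genes were below 0, with a median of -1.34, whereas 52.6% of all genes at the floor were above 0. Set against the summed reads of the list, Frzb differed by a log2 of 0.09 (-0.21 to 0.39), and against the sum without Col2a1 by -0.35 (-0.65 to -0.06). The sign thus turned on Col2a1, which made up most of the reads of the list. Against Sox9, the transcription factor required for cartilage, the difference was -0.33 (-0.69 to 0.03).

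Sfrp5, another secreted Frizzled-related protein, was lower by a similar factor from fewer reads. The gene spans 261442108 to 261446570 of chromosome 1 (minus strand) and had 24 reads in DA-DDH and 59 in control, a log2 ratio of -1.77 (-2.54 to -1.08). The ratio of Sfrp5 to Frzb reads was 0.174 in DA-DDH and 0.199 in control, a log2 difference of -0.18 with an interval from -1.0 to 0.58. These reads therefore did not separate the 2 genes in size of difference, and the interval is wide enough that they may differ by up to 2-fold.

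Wif1, whose product binds Wnt proteins outside the cell, differed less. The gene spans 63094955 to 63165158 of chromosome 7 (plus strand) and had 99 reads in DA-DDH and 103 in control, a log2 ratio of -0.55 (-0.96 to -0.14). When scaled by total reads its log2 ratio was -0.12 (-0.54 to 0.29), so its distance from 0 depends on the scaling. Ratios within a library need no scaling: Wif1 reads were 0.717 of Frzb reads in DA-DDH and 0.347 in control, a log2 difference of 1.05 (0.53 to 1.56). Against the summed reads of the superficial zone list, which includes the lubricin gene Prg4, Wif1 differed by 0.70 (0.28 to 1.12). Prg4 held 2057 of the 4000 summed reads in DA-DDH and 5317 of 6770 in control, and that sign turned on it. The median log2 ratio of the list was -0.59, close to that of Wif1. Wif1 reads were thus lower in DA-DDH on the TMM scale and higher there relative to Frzb.

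Dkk3 led the fibrous-type antagonists, a group named for its known place in fibroblasts and connective tissue (Sfrp1, Sfrp2, Sfrp4 and Dkk3). The gene spans 176940693 to 176983045 of chromosome 1 (minus strand). Dkk3 had 459 reads in DA-DDH and 234 in control, or 475 (432 to 520) and 340 (298 to 387) CPM. The log2 ratio was 0.48 (0.25 to 0.71), 1.39-fold higher in DA-DDH which is within the 2-fold threshold, with 820 genes at the floor above it. Marker genes closest in log2 ratio were Col5a2, a fibrillar collagen chain of fibrous tissue, at 0.47, Thy1, a surface protein of fibroblasts, at 0.49 and Thbs4, a thrombospondin gene, at 0.44. Thbs4 comes from the superficial zone list, in which 4 of 7 genes were below 0 and the median was -0.59.

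Sfrp4 and Sfrp2 pointed the same way from far fewer reads. Sfrp4, on chromosome 17 from 47383983 to 47394065 (minus strand), had 34 reads in DA-DDH and 11 in control, a log2 ratio of 1.11 (0.12 to 2.27). Sfrp2, on chromosome 2 from 182723732 to 182731277 (plus strand), had 24 and 12 reads in DA-DDH and control, under the floor, and its interval of -0.55 to 1.64 includes 0. Sfrp1, on chromosome 16 from 73372007 to 73410777 (minus strand), had 5 reads in DA-DDH and 6 in control, and its interval of -2.81 to 1.22 is too wide to give a direction. In these libraries Sfrp1 was close to the limit of what could be measured.

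The balance between fibrous-type and cartilage-type antagonists differed between the libraries. The 4 fibrous-type genes held 522 reads against 138 of Frzb in DA-DDH, a ratio of 3.78, and 263 reads against 297 of Frzb in control, a ratio of 0.886. The ratio was 4.26-fold higher in DA-DDH, a log2 difference of 2.09 (1.72 to 2.47) that no scaling between libraries can change. On the TMM scale the fibrous-type sum had a log2 ratio of 0.50 (0.28 to 0.72), within 2-fold, and Frzb one of -1.59. More of the difference thus lay with Frzb than with the fibrous-type genes. Dkk3 supplied most of the fibrous-type reads. Its ratio to Frzb was 3.33 in DA-DDH and 0.788 in control, a log2 difference of 2.07 (1.70 to 2.46). Without Dkk3 the ratio of the remaining genes to Frzb was 0.457 in DA-DDH and 0.0976 in control, a log2 difference of 2.21 (1.49 to 2.98). For Sfrp2 and Sfrp4 alone it was 0.420 in DA-DDH and 0.0774 in control (2.42, interval 1.65 to 3.26). The difference thus had the same direction without Dkk3, with the same Frzb reads as divisor. Only with Dkk3 did the fibrous-type reads outnumber those of Frzb in DA-DDH and not in control. With Wif1 added to the group they outnumbered Frzb in both libraries, at 4.5 in DA-DDH and 1.23 in control. Of the reads of all 10 antagonists, Dkk3 held 54.4% in DA-DDH (95% exact binomial interval 51.0 to 57.8) and 31.0% in control (27.7 to 34.4), and Frzb held 16.4% in DA-DDH (13.9 to 19.0) and 39.3% in control (35.8 to 42.9). The most read antagonist was Dkk3 in DA-DDH and Frzb in control.

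**Figure D2:**
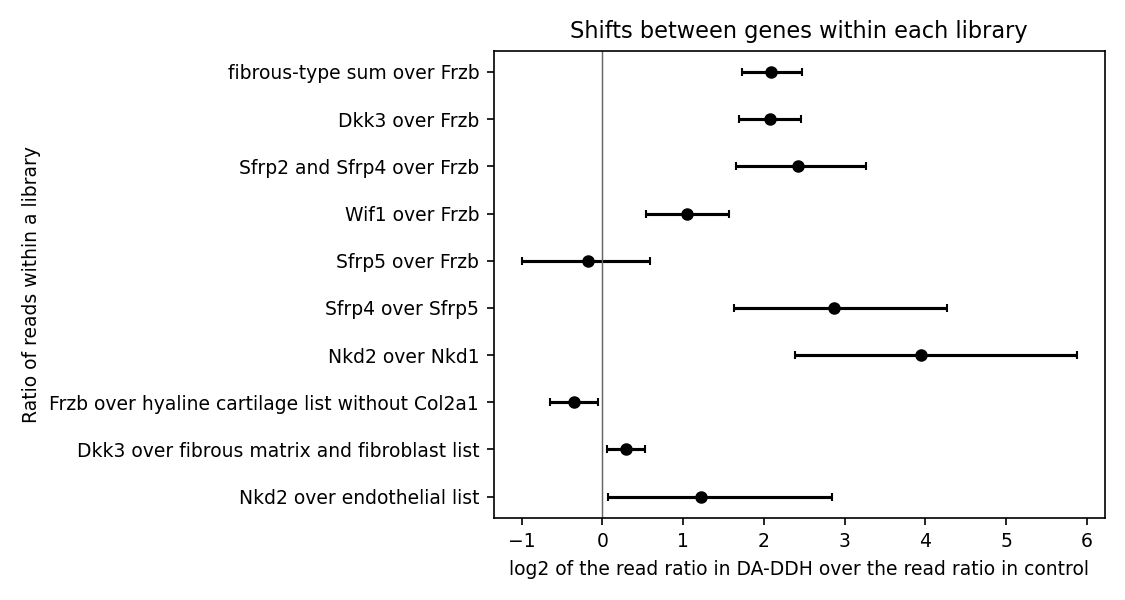
Ratios of reads between genes or lists within a library, as the log2 of the ratio in DA-DDH over the ratio in control (points) with 95% exact conditional intervals for counting error (bars). The fibrous-type sum over Frzb lies at 2.09 and Nkd2 over Nkd1 at 3.95, while the interval of Sfrp5 over Frzb crosses 0.

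Marker lists of several tissues were also higher in DA-DDH, and their part in this balance was not tested. On the TMM scale, summed log2 ratios were 1.34 for macrophage, 1.16 for endothelial, 1.11 for skeletal muscle and 0.83 for fat genes. They were smaller for fibrous genes (0.19), bone (0.15, interval 0.04 to 0.25) and smooth muscle (0.11, interval -0.02 to 0.25, which includes 0). The tendon and ligament list was lower, at -0.81. In the list of fibrous matrix and fibroblast genes, 17 of 18 at the floor had a log2 ratio above 0 (median 0.57), with no gene of the table at 0. Its summed reads before scaling were 129901 in DA-DDH against 80803 in control, a TMM-scaled log2 ratio of 0.19 (0.18 to 0.21). Set against this sum, Dkk3 differed by a log2 of 0.29 (0.06 to 0.52), and without Col1a1 in the sum by -0.11 (-0.34 to 0.13). That sign turned on Col1a1, whose reads made up much of the list. All 8 endothelial genes at the floor, of 10 listed and none at 0, were above 0 (1071 summed reads before scaling in DA-DDH and 340 in control). So were 8 of 9 skeletal muscle genes (2238 and 739 reads in DA-DDH and control) and all 4 macrophage genes at the floor of 10 listed (618 and 173 reads). Of all genes at the floor, 52.6% were above 0. Most of these macrophage genes and some of the endothelial, muscle and fibrous genes reached 30 reads in DA-DDH only, which favored ratios above 0.

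Nkd2 and Nkd1 encode paralogs with the same place in the pathway, and their reads differed in opposite directions. Nkd2, on the plus strand of chromosome 1 from 32058044 to 32084883, had 47 reads in DA-DDH and 6 in control. Its log2 ratio was 2.40 (1.25 to 3.99), exceeded by 1 of the 4375 genes at the floor, and among genes with 30 to 99 reads 5.65% passed 2-fold on the higher side. Nkd2 reached the floor through DA-DDH alone, which favored a high place, and its ratio rests on 6 control reads. Nkd1, on the minus strand of chromosome 19 from 19436333 to 19509087, had 13 reads in DA-DDH and 28 in control, just under the floor, with a log2 ratio of -1.56 (-2.67 to -0.60). There were 3.62 Nkd2 reads per Nkd1 read in DA-DDH and 0.214 in control, a log2 difference of 3.95 (2.39 to 5.88). Exon lengths are 4023 bases for Nkd2 and 2556 for Nkd1. In CPM per kilobase of exon, Nkd2 stood at 12.1 (8.88 to 16.1) and Nkd1 at 5.26 (2.80 to 9.0) in DA-DDH, against 2.17 (0.796 to 4.72) for Nkd2 and 15.9 (10.6 to 23.0) for Nkd1 in control. The order of the 2 levels was thus opposite in the 2 libraries, with intervals that touched narrowly in DA-DDH and did not touch in control.

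Because Nkd genes and Axin2 are known feedback targets of β-catenin and its TCF/LEF partners, promoters were searched for the TCF/LEF words CTTTGAT and CTTTGTT on both strands. The reverse complement of CTTTGTT is also a word that Sox proteins can bind. RefSeq promoters of build GRCr8 (250 bases before to 50 after a gene's start) matched 7 of the 10 antagonists by symbol. These coordinates are of another build than the rn6 positions above. Of 33469 promoters, 9.39% hold at least 1 of the words. The Nkd promoters are shown as the pair whose reads differed in opposite directions, Nkd1 at chr19:34722797-34723096 (minus strand) and Nkd2 at chr1:31272282-31272581 (plus strand), in lower case with the words in capitals.
Nkd1: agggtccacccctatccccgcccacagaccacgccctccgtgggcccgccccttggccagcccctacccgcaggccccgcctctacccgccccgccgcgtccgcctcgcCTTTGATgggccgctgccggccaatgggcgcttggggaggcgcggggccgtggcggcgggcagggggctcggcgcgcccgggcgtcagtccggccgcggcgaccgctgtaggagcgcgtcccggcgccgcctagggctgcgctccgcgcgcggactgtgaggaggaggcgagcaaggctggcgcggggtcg
Nkd2: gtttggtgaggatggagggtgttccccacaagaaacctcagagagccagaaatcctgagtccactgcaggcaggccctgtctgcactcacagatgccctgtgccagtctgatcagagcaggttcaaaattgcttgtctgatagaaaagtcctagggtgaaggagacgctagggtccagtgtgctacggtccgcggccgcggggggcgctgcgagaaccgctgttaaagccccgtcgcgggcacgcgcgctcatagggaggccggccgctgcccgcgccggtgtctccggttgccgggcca
The Nkd1 window holds CTTTGAT, 141 bases before the start, and the Nkd2 window holds neither word. The GC content is 79.3% for Nkd1 and 62.7% for Nkd2. Among the other matched antagonists, Dkk1 holds CTTTGTT and Sfrp5, Sfrp2, Frzb and Wif1 hold neither, and Axin2 holds CTTTGAT. A match is a description of letters and not a bound site.

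Dkk1 had 0 reads in both libraries and was not measured here. In the deposited annotation its 8 exons form 2 sets of 4 with the same exon lengths on chromosome 1, between 248894892 and 248956579. The receptor gene Fzd8 was alike in this respect, with its exons at 2 places and 0 reads in both libraries. Such a 0 was not read as lack of expression. The exons of none of the 10 antagonists (0 members) overlap those of another gene in the table.

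Per kilobase of exon the antagonists covered a wide range of levels. In DA-DDH the order was Dkk3 at 94.8 (86.3 to 104) CPM per kilobase, Frzb at 52.1 (43.8 to 61.6), Wif1 at 47.5 (38.6 to 57.9), Sfrp4 at 18.6 (12.9 to 26.0), then Sfrp2, Sfrp5, Nkd2, Nkd1 and Sfrp1 between 12.6 and 1.33. In control it was Frzb at 158 (140 to 177), Wif1 at 69.5 (56.8 to 84.3), Dkk3 at 68.0 (59.5 to 77.2), Sfrp5 at 43.2 (32.9 to 55.7), then Nkd1, Sfrp2, Sfrp4, Sfrp1 and Nkd2 between 15.9 and 2.17. Neighbors whose intervals did not overlap were Dkk3 and Frzb, and Wif1 and Sfrp4, in DA-DDH. In control they were Frzb and Wif1, Dkk3 and Sfrp5, and Sfrp5 and Nkd1. All other neighbors overlapped within counting error.

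**Figure D3:**
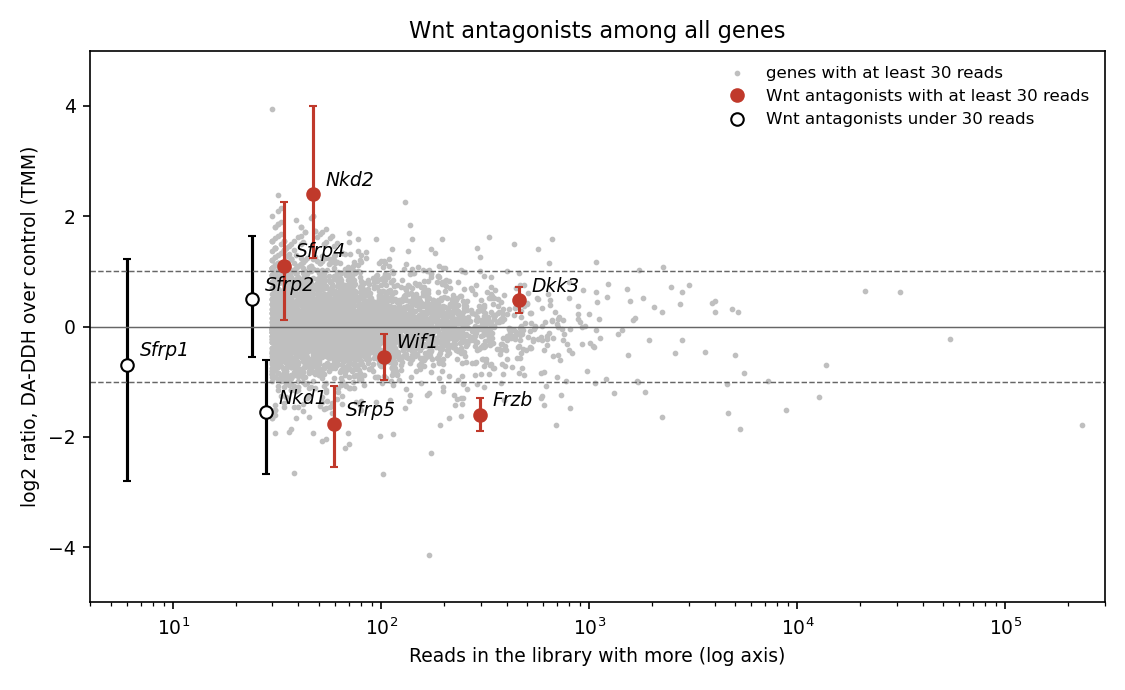
Log2 ratio of DA-DDH over control against reads in the library with more (log axis) for the 4375 genes at the floor of 30 reads (grey) and the antagonists (circles, 95% exact conditional intervals). Dashed lines mark 2-fold. Frzb, at -1.59, has only 11 of the 1313 genes with 100 reads or more below it, whereas Dkk3 and Wif1 lie within 2-fold.

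The rest of the pathway was read from 6 lists of ligands, receptors, R-spondins, other inhibitors, core components and targets, with 82 of 94 listed genes in the table. Of these, 25 reached 30 reads, 4 passed 2-fold on the higher side in DA-DDH and 1 on the lower side, and the median log2 ratio was 0.10. These are 16% and 4% of the 25, against 4.82% and 3.04% of all genes at the floor. The 4 higher genes reached the floor in DA-DDH only and the lower one, Fzd2, in control only, so these had to differ. No ligand, R-spondin gene or further inhibitor reached the floor, and the ligands together held 47 reads in DA-DDH and 27 in control. The antagonists together held 843 reads in DA-DDH and 756 in control, numbers not corrected for gene length. After TMM scaling their sum was 872 CPM in DA-DDH and 1100 CPM in control, a log2 ratio of -0.33 (-0.48 to -0.19), so the sum was lower in DA-DDH on this scale. Scaling by total reads moves log2 ratios up by 0.43, which is more than this distance from 0. The direction of the sum therefore depends on the scaling.

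Among 9 receptors at the floor, Frizzled genes lay on both sides. Fzd1 had 49 reads in DA-DDH and 15 in control, a log2 ratio of 1.19 (0.36 to 2.16), and Fzd4, a receptor of vessels, had 61 and 19 in DA-DDH and control, at 1.17 (0.43 to 2.02). Fzd2 had 24 reads in DA-DDH and 36 in control, at -1.06 (-1.89 to -0.29), and it lay within 2-fold when scaled by total reads (-0.64), by total reads without Col2a1 or by Gapdh. Fzd6 was at 0.40 (-0.37 to 1.22). The coreceptors Lrp5 and Lrp6, at -0.29 and 0.11, had intervals that include 0. None of the 11 core components at the floor passed 2-fold. Of these, the largest differences were Pygo2, a nuclear partner of β-catenin, at -0.63 (-1.45 to 0.16), Ctnnb1, which encodes β-catenin, at -0.41 (-0.65 to -0.16), Dvl1, a Dishevelled gene, at 0.32 (-0.36 to 1.03) and the transcription factor Tcf7l1 at 0.29 (-0.39 to 1.01). Scaled by total reads, Ctnnb1 was at 0.02 and Lrp5 at 0.14, so neither has a direction that holds under both scalings.

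Of 5 target genes at the floor, 4 were above 0 and 1 below. Twist1, a transcription factor of mesenchyme, was at 1.34 (33 reads in DA-DDH and 9 in control), Wisp2 at 1.23 (37 and 11), the cell cycle gene Ccnd1 at 0.91 (72 and 27) and Wisp1 at -0.93 (27 and 37), with Wisp1 and Wisp2 encoding matricellular proteins of one family. These genes answer to signals other than Wnt as well. Axin2, the target most specific to the canonical branch, had 22 reads in DA-DDH and 19 in control, with a log2 interval from -1.23 to 0.69 that gives no direction. Set against Axin2, Nkd2 differed by a log2 of 2.66 (1.12 to 4.54) and Nkd1 by -1.28 (-2.76 to 0.11).

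**Figure D4:**
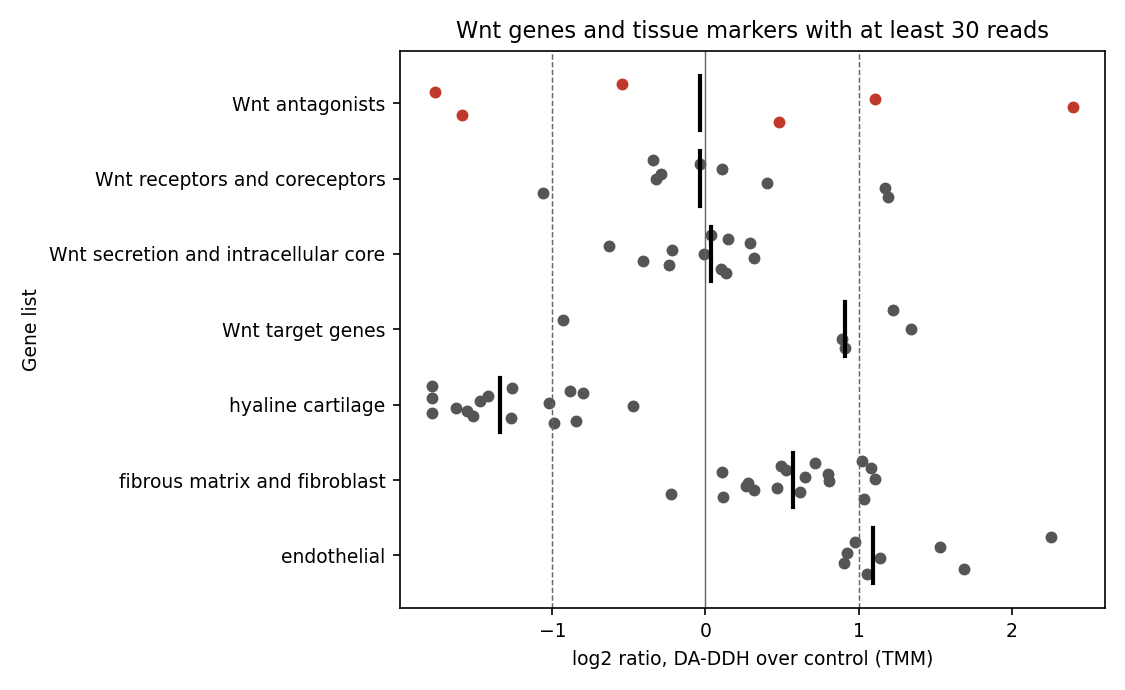
Log2 ratios of DA-DDH over control for genes at the floor of 30 reads (points) in each list, with list medians (black bars) and 2-fold lines (dashed). The antagonists (red) spread from -1.77 to 2.40 around a median of -0.03, while all hyaline cartilage genes lie below 0 and all endothelial genes above 0.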

How the data were processed

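RNA-seq was performed on 1 library per group of pooled acetabular cartilage RNA (5 DA-DDH and 4 control rats). Sources differ on the library kit, which is TruSeq Stranded mRNA in the methods and a SMARTer Stranded Pico kit for total RNA in the labels. The authors aligned reads to rn6. TopHat and Cufflinks appear in the submitters' processing notes. The counting tool, and whether it used strand, are not given in the sources used here. The deposited signal is a normalized read count per gene, and all values (100%) were whole multiples of 1 step per library (0.855 in DA-DDH and 1.20 in control, relative tolerance 1e-06), so reads were recovered by division. Deposited columns of fold changes, p-values, q-values, ranks and calls were not used.

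Log2 ratios used TMM in edgeR 4.0.16 (R 4.3.3; factors 1.16 in DA-DDH and 0.863 in control) and a prior of 0.5 reads shared out by library size. No test of the conditions was possible. Levels have exact Poisson intervals, ratios exact conditional intervals, and shares Clopper-Pearson intervals, all at 95%. A 0 was taken to allow 3 reads per library (3.10 CPM in DA-DDH and 4.36 in control), and the two-sided exact Poisson interval of a 0 reaches 3.69 reads. Genes were counted as past 2-fold only where 30 reads were reached in one library or both, and genes with fewer are given by their reads, ratios and intervals.

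The members, gene lists and contrasts were chosen with earlier results of these data known, and contrasts against marker lists, Axin2 and single genes were added after the values were seen. Named genes are the members, up to 4 genes of each pathway list at the floor with the largest absolute log2 ratio, up to 2 genes with most reads of each marker list, and the 3 marker genes closest in ratio to Frzb and to Dkk3. Outside this rule, and after their values were seen, Lrp5, Lrp6, Axin2, Fzd8, Sox9, Wnt5a, Wnt5b, Notum and Dact3 were named. Of the marker lists, those for tendon, bone, smooth muscle and fat had summed log2 ratios of -0.81, 0.15, 0.11 and 0.83. The calculations were tested on simulated data. Alternatives were total-count, upper-quartile and DESeq2 1.42.0 median-of-ratios scaling, the deposited values, total reads without Col2a1, Gapdh, other priors, floors and thresholds, and other fibrous-type groups. Figures were drawn in matplotlib 3.10.9, and calculations used scipy 1.17.1, pandas 2.3.3 and numpy 2.4.6 under Python 3.11.15.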

Additional observations from a re-analysis of the deposited data

How the results depend on the processing

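Across 72 log2 ratios (9 antagonists with reads under 8 alternatives of scaling and prior), 69 stayed within the counting interval, and none of the 72 changed sign. The 3 that left it were Frzb (-1.17), Dkk3 (0.90) and Wif1 (-0.12) scaled by total reads. That scaling moves log2 ratios up by 0.43 before the prior is added, and by 0.39 to 0.43 in the antagonists with it. With total reads 14.6% of all genes at the floor were more than 2-fold higher and 1.07% lower, against 4.82% and 3.04% with TMM. With a floor of 100 reads, 0 of 3 antagonists were more than 2-fold higher and 1 was lower, against 2 and 2 of 6, since fewer genes are read. With a floor of 10 reads 2 of 8 were higher and 3 lower, and with no floor 2 and 3 of 9, since Nkd1 enters. The shares of all genes at these floors follow. For the 6 pathway lists the numbers more than 2-fold higher (4 in the report) were 7 of 48 genes with a floor of 10 reads, 14 of 67 with no floor and 0 of 7 with a floor of 100, against 9.15%, 16.3% and 2.89% of all genes. The numbers lower (1 in the report) were 5, 8 and 0 at these floors, against 5.3%, 11.8% and 3.81% of all genes. At a 1.5-fold threshold 6 were higher and 3 lower, and the share of all genes at that threshold was not calculated. With total reads, total reads without Col2a1 or Gapdh scaling, 0 were lower, since Fzd2 lay within 2-fold. Under these scalings, in that order, 6, 5 and 6 were higher. The fibrous-type balance had the same direction in all 4 alternatives (1.86 to 2.42). Each of them is set against the same Frzb reads, so they are not independent checks of that direction.

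No paired analysis was possible because each group has 1 pooled library, and leaving out a library leaves no comparison. Depth limits Sfrp1, Sfrp2, Nkd1 and Axin2, each with under 30 reads.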

Other observations

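Among Wnt genes under 30 reads, chosen after their values were seen, the balance of the noncanonical ligands Wnt5a and Wnt5b differed. Wnt5a had 17 reads in DA-DDH and 3 in control, a log2 ratio of 1.87 (0.22 to 4.42). Wnt5b had 5 reads in DA-DDH and 11 in control, and its interval of -3.51 to 0.01 includes 0, so it has no direction of its own. There were 3.40 Wnt5a reads per Wnt5b read in DA-DDH and 0.273 in control (log2 difference 3.39, 95% exact conditional interval 1.01 to 6.50). Notum, which encodes an enzyme that inactivates Wnt proteins, had 1 read in DA-DDH and 9 in control (interval of the log2 ratio -9.12 to -0.81). Dact3, another gene whose product acts on Dishevelled, had 23 reads in DA-DDH and 6 in control (0.11 to 3.03). These intervals cover counting error only, and each comes from the 2 pooled libraries.

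Unequal ratios within a family also appeared for Wisp2 over Wisp1 (1.37 in DA-DDH and 0.297 in control, log2 difference 2.15, interval 0.90 to 3.56) and for Fzd1 and Fzd4 over Fzd2 (4.58 in DA-DDH and 0.944 in control, 2.25, interval 1.28 to 3.28). These pairs were picked for their difference and are given as description. Nkd2 also differed from the summed endothelial list by a log2 of 1.22 (0.07 to 2.84).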
